A study of Rattus norvegicus with 325 samples.

Results

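Fatty acid uptake and oxidation was followed through 10 genes (Cd36, Lpl, Angptl4, Fabp3, Cpt1b, Cpt2, Acadl, Hadha, Pdk4 and Ucp3) in ageing rat muscle. They were taken by symbol from the 17315 distinct gene symbols of the count files, and each symbol stood on 1 line. The study sequenced muscle RNA of male Sprague Dawley rats, an outbred strain, with no genetic change and no treatment in any group and with food freely available. There were 83 libraries of the diaphragm, 73 of the gastrocnemius, 84 of the soleus and 85 of the tibialis anterior. They fall into 28 groups of 9 to 13 libraries, with the ages 6, 9 and 12 months, then 18 and 21 months, and last 24 and 27 months in every muscle. By the study's supplement each library of a muscle is from its own animal. The labels do not tie libraries of different muscles to 1 animal, and each age was collected on its own day, so that age and collection day cannot be told apart. All 10 genes passed the filter on low counts in every muscle.

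Muscle burns fatty acids that it draws from the blood. Lipoprotein lipase on the capillary wall frees them from circulating triglyceride, CD36 helps them across the cell membrane, heart-type fatty acid binding protein (Fabp3) carries them through the cytosol, and the carnitine shuttle brings them into mitochondria, where beta-oxidation shortens them step by step. Slow, oxidative muscle is known for a high capacity for this pathway, and PPAR receptors, which sense fatty acids, induce many of its genes during fasting.

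Levels are CPM, counts scaled to an equal library total, on a common scale over all libraries that was set by the trimmed mean of M values (TMM). The libraries held 17555294 to 85316329 counts (median 31879679), so that 1 CPM stood for 17.6 to 85.3 counts before TMM scaling. The labels of the muscles were checked with myosin genes. Myh7, the slow myosin, had a median of 47514 CPM in the soleus at 6 months and 2062 CPM in the tibialis anterior. For Myh4, a fast myosin, the medians were 8.39 and 87432 CPM, in that order. A total of 7 libraries correlated less with their own group than the rest of their muscle did (2 of the diaphragm and 5 of the tibialis anterior, 1 of them at 27 months), and without them every call at 6 and at 27 months given here for these 10 genes was the same.

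At 6 months the muscles already differed in these genes. A limma-voom fit over all groups called a gene different between muscles at a Benjamini-Hochberg adjusted p under 0.05 and over 1.5-fold. Between the soleus and the tibialis anterior 7 of the 10 genes were called, against 42.9% of all genes tested, and between the diaphragm and the tibialis anterior also 7, against 35.1%. The soleus and the gastrocnemius differed in 6 (all genes 45.4%), the diaphragm and the gastrocnemius in 5 (37.3%), the diaphragm and the soleus in 3 (23.9%), and the gastrocnemius and the tibialis anterior in 1 (17.3%), which was Fabp3. In bulk tissue, fewer cells of a type and less RNA per cell cannot be told apart.

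Lpl and Cd36, both of uptake, set the soleus and the diaphragm apart from the other two muscles. Lpl, which encodes lipoprotein lipase, had a mean level of 10.92 ± 0.082 log2 CPM (SD, n = 12) in the soleus and 10.72 ± 0.12 (SD, n = 12) in the diaphragm at 6 months. In the gastrocnemius it was 8.33 ± 0.17 (SD, n = 10) and in the tibialis anterior 8.09 ± 0.15 (SD, n = 12). The difference of tibialis anterior minus soleus was -2.83 on the log2 scale (adjusted p = 2.08e-87), whereas soleus and diaphragm, neighbours in this order, were not called different (0.20, adjusted p = 0.0841). Cd36, the membrane fatty acid transporter, had a similar order, with the last 2 exchanged, at 9.95 ± 0.24 in the soleus, 9.93 ± 0.29 in the diaphragm, 8.85 ± 0.24 in the tibialis anterior and 8.48 ± 0.27 in the gastrocnemius (log2 CPM, SD, n = 10 to 12). For Cd36 neither soleus and diaphragm (0.015) nor tibialis anterior and gastrocnemius (0.37) passed the 1.5-fold threshold. Angptl4, which encodes an inhibitor of lipoprotein lipase made in fasting, had few counts in every muscle, with means of 1.25 ± 0.76 to 1.88 ± 1.43 log2 CPM, and was called in no pair of muscles by limma-voom. With edgeR 1 of these pairs, the soleus and the gastrocnemius, was called for Angptl4 (adjusted p = 0.0259).

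For Fabp3 and the genes of the shuttle and of beta-oxidation the muscles lay closer together than for Lpl. They did not all lie closer than for Cd36. Tibialis anterior minus soleus was -1.35 for Fabp3 and -1.10 for Cd36. Fabp3 stood at 8.80 ± 0.14, 8.77 ± 0.18 and 8.44 ± 0.21 log2 CPM in the soleus, diaphragm and gastrocnemius, none of which were called different from each other, and at 7.45 ± 0.16 in the tibialis anterior, lower than in each of them. Cpt1b, the muscle form of the carnitine palmitoyltransferase that starts the shuttle, was highest in the soleus (9.62 ± 0.08), called against the diaphragm (9.01 ± 0.083), gastrocnemius (8.78 ± 0.20) and tibialis anterior (8.67 ± 0.052). Under scaling to total counts the difference between soleus and diaphragm was 0.57, just short of 1.5-fold. Cpt2, the inner membrane enzyme of the shuttle, ran from 8.02 ± 0.13 in the soleus to 7.14 ± 0.076 in the tibialis anterior, and Acadl, a long-chain acyl-CoA dehydrogenase, from 9.38 ± 0.083 in the soleus to 8.46 ± 0.13 in the gastrocnemius. Hadha, a subunit of the trifunctional protein of beta-oxidation, was lowest in the soleus (8.19 ± 0.11) and highest in the gastrocnemius (8.60 ± 0.14), and it was called in no pair by limma-voom or by edgeR. With total-count scaling the gastrocnemius was also called lower than the diaphragm for Fabp3 (-0.77), Cpt1b (-0.67) and Cpt2 (-0.97), and Hadha and Cpt1b were called lower in the tibialis anterior than in the diaphragm (-0.71 and -0.79). Fabp3 was then also called higher in the soleus than in the gastrocnemius (0.76).

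Pdk4 and Ucp3 had orders of their own. Pdk4, a kinase that switches off pyruvate dehydrogenase and so spares glucose, was highest in the diaphragm at 6 months (9.47 ± 0.45 log2 CPM), called against the other muscles (8.62 ± 0.51 to 8.76 ± 0.47), among which no difference was called. None of these 3 Pdk4 differences passed a Bonferroni adjustment. Ucp3, a mitochondrial carrier of the inner membrane found mainly in muscle, was highest in the tibialis anterior (7.51 ± 0.32) and gastrocnemius (7.26 ± 0.42), lower in the diaphragm (5.88 ± 0.59) and lowest in the soleus (4.08 ± 0.69). Ucp3 was thus lowest where Lpl and Cd36 were highest, and the tibialis anterior was 3.43 above the soleus on the log2 scale (adjusted p = 1.32e-20). The plot of levels by age and muscle shows these orders at its left edge.

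**Figure D1:**
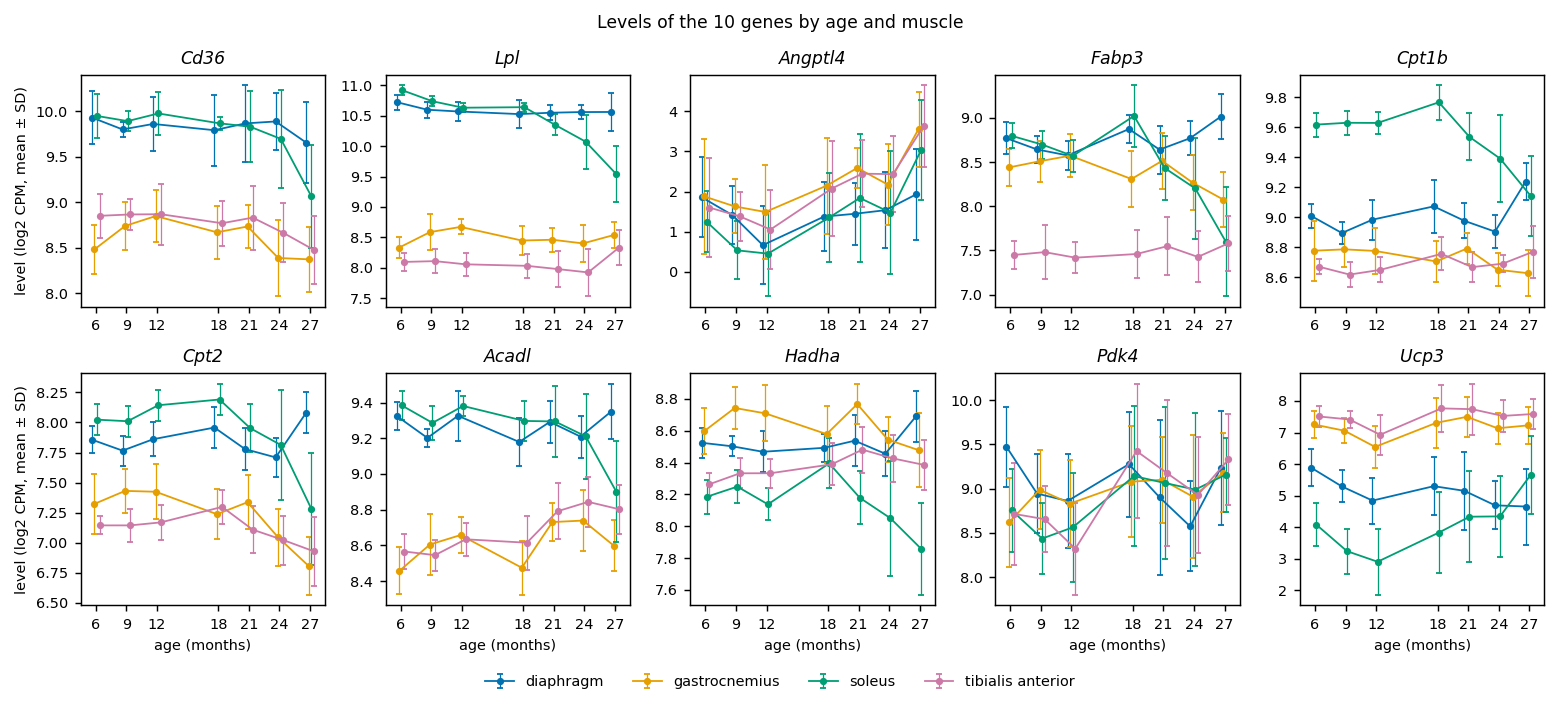
Mean level of each gene in log2 CPM (vertical axis) at each age in months (horizontal axis), with the SD of the 9 to 13 libraries of a group as bars and a colour for each muscle. In the soleus Lpl lies below its 6-month mean at every later age, Fabp3, Cd36 and Cpt2 have their lowest means at 27 months, Angptl4 is highest at 27 months in the 3 limb muscles, and the Ucp3 line of the soleus lies above that of the diaphragm at 27 months, having lain below it at 6 months.

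To ask how these genes age, each age was compared with 6 months within a muscle, two-sided, with the same threshold. At 27 months 6 of the 10 genes were called in the soleus, 2 higher and 4 lower, where 15% of all genes tested were called, 9.21% higher and 5.78% lower. In the tibialis anterior 2 were called, both higher, against 27.6% of all genes (17.2% higher, 10.4% lower). The gastrocnemius had 1 called higher, against 22.8% (15.1% higher, 7.76% lower), and the diaphragm 1 called lower, against 7.52% (3.27% higher, 4.25% lower). Before 27 months 4 of 200 tests were called, namely Lpl in the soleus at 24 months, Pdk4 and Ucp3 in the diaphragm at 24 months, both lower, and Pdk4 in the tibialis anterior at 18 months. Of all genes, 2.68%, 18.8%, 6.51% and 14.5% were called at 24 months in the order of diaphragm, then gastrocnemius, soleus and tibialis anterior, 1.68%, 5.81%, 2.61% and 6.47% at 21 months, 2.25%, 4.32%, 2.84% and 5.45% at 18 months, 0.532%, 0.885%, 0.353% and 0.196% at 12 months and 0.108%, 0.143%, 0.123% and 0.00851% at 9 months, in the same order. At 9, 12 and 21 months limma-voom called none, although 17 of 80 tests at 9 and 12 months and 10 of 40 at 21 months had an unadjusted p under 0.05. No other tool, scaling or covariate was run for any age before 27 months against 6 months. The 4 calls at 18 and 24 months were therefore not checked in this way. In the diaphragm, soleus and tibialis anterior, all libraries of 12 months stood in another running-number series of the labels than those of 6 months. Series and age therefore cannot be told apart for the 12-month values of these muscles. Of the 10 calls at 27 months 5 passed a Bonferroni adjustment, which the study's methods name. These were Lpl, Fabp3, Cd36 and Cpt2 in the soleus and Angptl4 in the tibialis anterior.

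**Figure D2:**
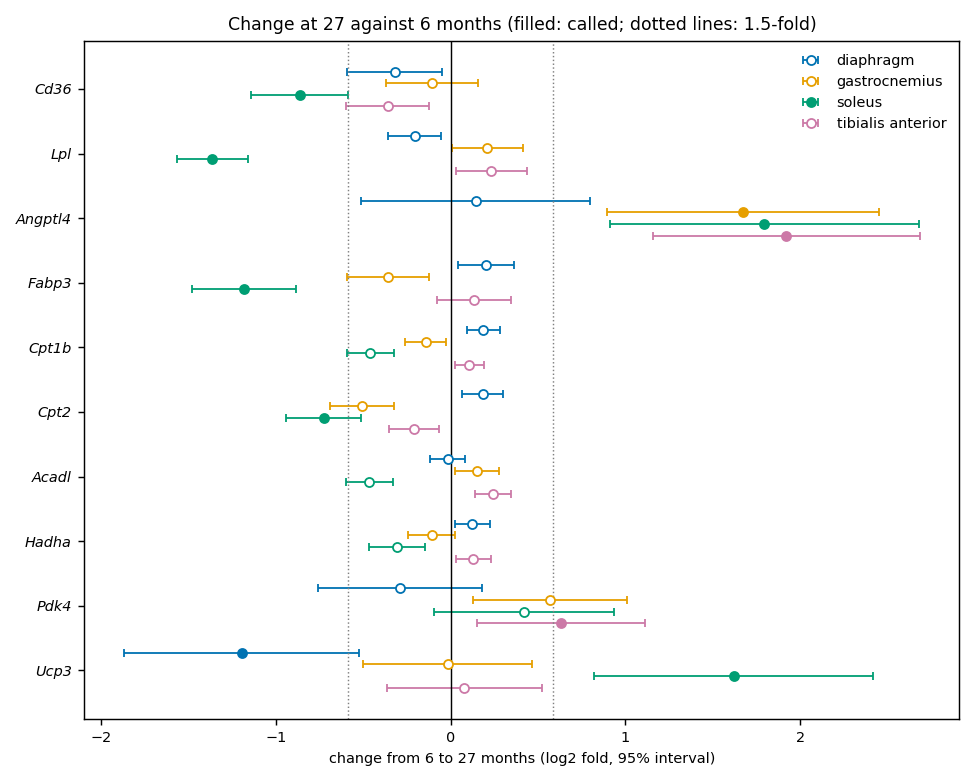
Change of each gene from 6 to 27 months on the log2 scale (horizontal axis) with its 95% interval, 1 point for each muscle, filled where the gene was called. The soleus points of Lpl, Fabp3, Cd36 and Cpt2 lie left of the dotted 1.5-fold line, and the Angptl4 points of the 3 limb muscles lie right of it.

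Lpl and Cd36 were called lower at 27 months in the soleus. Lpl in the soleus had a lowest, median and highest level of 1769.7, 1936 and 2217 CPM at 6 months, 617, 1225 and 1501 CPM at 24 months and 479, 734 and 1507 CPM at 27 months. All 12 libraries of 27 months lay below the lowest of 6 months, a separation that 5.64% of all genes tested in the soleus had. Elsewhere none of the 10 genes was so separated, against 2.85% of all genes in the diaphragm, 14.1% in the gastrocnemius and 20.2% in the tibialis anterior. Its fall of 1.36 on the log2 scale (2.57-fold, SE 0.10, adjusted p = 2.10e-19) was preceded by a fall of 0.84 at 24 months (SE 0.10, adjusted p = 1.22e-09). At 18 and 21 months the values were -0.28 and -0.56, both at an adjusted p under the threshold but under 1.5-fold. The other muscles gave -0.21 in the diaphragm, 0.21 in the gastrocnemius and 0.23 in the tibialis anterior at 27 months, none of which were called.

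Cd36 in the soleus went from 601, 1026 and 1145 CPM (lowest, median and highest) at 6 months to 224, 556 and 1037 CPM at 27 months. The groups overlapped, with 6 of 12 old libraries below every young one and 11 of 12 below the young median. Its fall was 0.86 (1.82-fold, SE 0.14, adjusted p = 2.43e-07), and at 24 months the value was -0.24, not called. The tibialis anterior had -0.36 at 27 months (SE 0.12, adjusted p = 0.00623), under 1.5-fold, and the diaphragm -0.32 (adjusted p = 0.0533). The change of Cd36 was not called different between soleus and tibialis anterior (tibialis anterior minus soleus 0.51, 95% interval 0.14 to 0.87, adjusted p = 0.022, under 1.5-fold).

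Angptl4, the lipase inhibitor, rose in the 3 limb muscles. In the tibialis anterior its lowest, median and highest levels were 0.741, 3.18 and 11.9 CPM at 6 months and 3.3, 13 and 32.7 CPM at 27 months, a rise of 1.92 (3.78-fold, SE 0.39, adjusted p = 9.82e-06). In the soleus they were 1.04, 2.41 and 6.05 CPM and 2.74, 8.72 and 29.6 CPM, a rise of 1.80 (3.47-fold, SE 0.45, adjusted p = 0.000493). For the gastrocnemius the levels were 0.556, 3.45 and 16 CPM and 3.86, 10.9 and 36 CPM, a rise of 1.67 (3.19-fold, SE 0.40, adjusted p = 0.000216). The groups overlapped in each, yet every old library lay above the young median, 12 of 12, 12 of 12 and 11 of 11. In the diaphragm the value was 0.14 (adjusted p = 0.758), with old libraries spread from 0.877 to 14.6 CPM.

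Fat cells also express Angptl4 and Lpl, and adipocyte markers rose beside Angptl4. In the soleus 6 of 7 adipocyte markers were called higher at 27 months, and their summed level was 36.9 to 189 CPM at 6 months and 168 to 462 CPM at 27 months. In the gastrocnemius 5 were called higher (12.9 to 67.9 CPM, then 42.4 to 91.4 CPM) and in the tibialis anterior 5 (10.7 to 37.9 CPM, then 42.6 to 71.7 CPM). In the diaphragm, where Angptl4 was not called, 2 were called lower (36.2 to 469 CPM, then 72 to 282 CPM). None of the 7 markers was at 0 in every library of any of these groups. With the adipocyte marker score as a covariate Angptl4 was 1.58 in the gastrocnemius and 1.56 in the tibialis anterior, both still called, and 1.03 in the soleus, no longer called (adjusted p = 0.14). The markers themselves differed with age, and in the tibialis anterior their summed levels at 6 and 27 months did not overlap. The covariate therefore cannot tell fat cells and age apart, and the part of fat cells in these rises was not tested.

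Fabp3, the cytosolic carrier, fell in the soleus, and its change there was called different from that in each other muscle. Its soleus levels were 390.5, 434 and 524 CPM (lowest, median and highest) at 6 months, 317, 544 and 686 CPM at 18 months and 94.4, 188 and 378 CPM at 27 months. Every old library lay below every young one, after a peak of the median at 18 months that was not called (0.23). The fall at 27 months was 1.18 (2.27-fold, SE 0.15, adjusted p = 2.95e-10), and the 24-month value of -0.58 was just under 1.5-fold. At 27 months the gastrocnemius had -0.36, the diaphragm 0.20 and the tibialis anterior 0.13.

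Of the carnitine shuttle, Cpt2 fell in the soleus. It had levels of 235, 257 and 308 CPM (lowest, median and highest) at 6 months and 93.5, 156 and 297 CPM at 27 months, and 11 of 12 old libraries lay below every young one. This was a fall of 0.73 (1.65-fold, SE 0.11, adjusted p = 2.42e-08), which with total-count scaling was -0.58 and not past 1.5-fold. The gastrocnemius had a Cpt2 value of -0.51 (SE 0.094, adjusted p = 3.40e-06), under the fold threshold, with all 11 old libraries below the young median. Cpt1b was -0.46 in the soleus (SE 0.069, adjusted p = 2.35e-08), from a median of 783 CPM to 555 CPM, also short of 1.5-fold although 11 of 12 old libraries were below every young one. In the diaphragm both values had the opposite sign, with 0.19 for Cpt1b (adjusted p = 0.000619) and 0.18 for Cpt2 (adjusted p = 0.00892), again short of the fold threshold.

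The beta-oxidation enzymes Acadl and Hadha differed by less than 1.5-fold in every muscle. In the soleus at 27 months Acadl had -0.46 (SE 0.068, adjusted p = 1.39e-08) and Hadha -0.31 (SE 0.082, adjusted p = 0.00095). Acadl medians there were 669 CPM at 6 months and 456 CPM at 27 months, and 10 of 12 old libraries lay below every young one. With a clock score as a covariate the soleus value of Acadl was -0.65 and was called. This score was the log2 CPM of Dbp minus that of Arntl, both genes of the circadian clock. The tibialis anterior had positive values of 0.24 for Acadl (adjusted p = 2.83e-05) and 0.13 for Hadha (adjusted p = 0.0191).

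**Figure D3:**
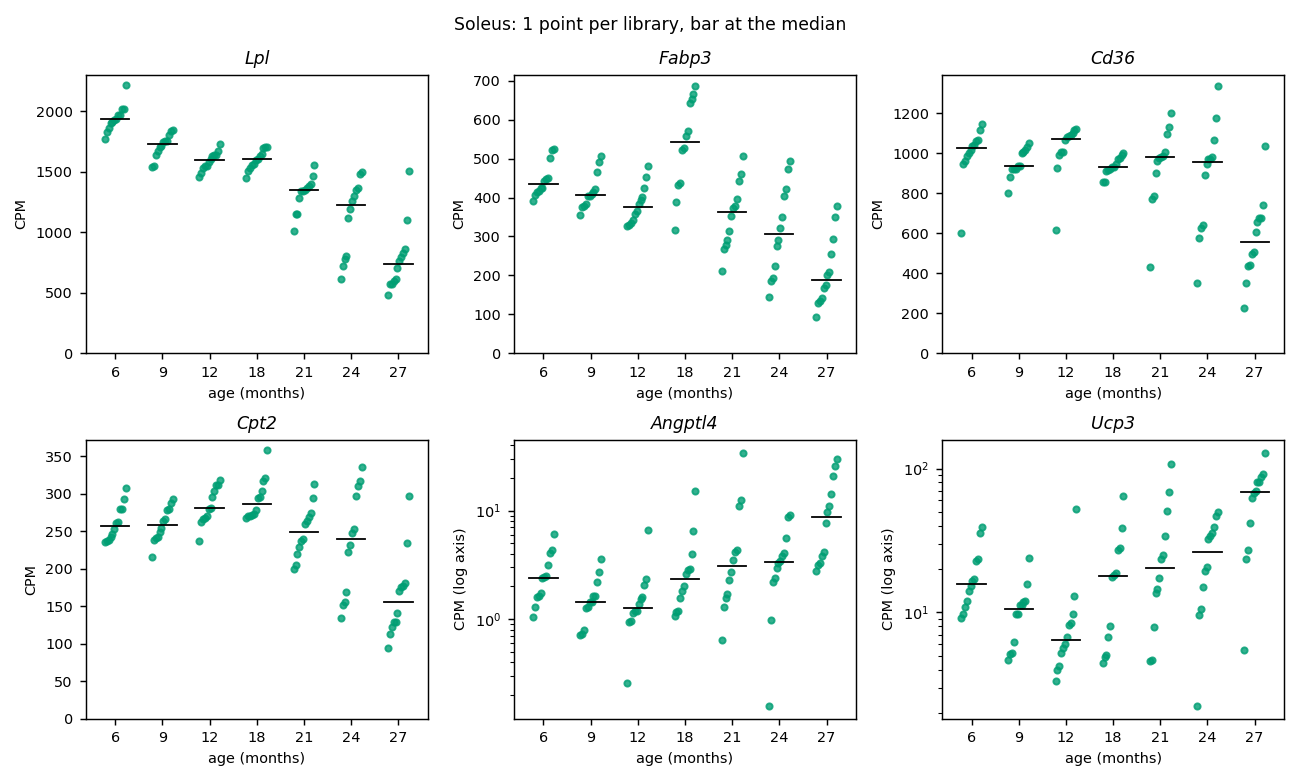
Soleus level in CPM of 6 genes in every library (1 point each, 12 at each age, sorted within an age) against age in months, with a bar at the median. The axes of Angptl4 and Ucp3 are logarithmic. Old libraries of Lpl and Fabp3 lie below all of 6 months, while those of Angptl4 and Ucp3 overlap with 6 months.

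Ucp3 moved in opposite directions in the soleus and the diaphragm. In the soleus its lowest, median and highest levels were 9.19, 15.9 and 39.2 CPM at 6 months, 3.33, 6.4 and 52.4 CPM at 12 months and 5.52, 68.5 and 129 CPM at 27 months. At 27 months 9 of 12 libraries lay above every young one and 1 below all of them. The rise was 1.62 (3.07-fold, SE 0.41, adjusted p = 0.000499). Diaphragm levels were 35.9, 53.5 and 134 CPM at 6 months and 7.45, 32.9 and 84.6 CPM at 27 months, a fall of 1.20 (2.29-fold, SE 0.34, adjusted p = 0.00291) with 7 of 12 old libraries below every young one. A fall of 1.16 was also called there at 24 months. The diaphragm fall at 27 months did not hold when the clock score (Dbp minus Arntl) was a covariate, where the value was 0.35 (adjusted p = 0.683). The 24-month fall was not run with this covariate. In the gastrocnemius (-0.017) and tibialis anterior (0.079) Ucp3 was not called.

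Pdk4 rose in the tibialis anterior and, at 24 months, fell in the diaphragm. Its tibialis anterior levels were 239, 417 and 817 CPM (lowest, median and highest) at 6 months, 322, 679 and 1589 CPM at 18 months and 324, 664 and 1065 CPM at 27 months. The rise was 0.73 at 18 months (SE 0.25, adjusted p = 0.0162) and 0.63 at 27 months (SE 0.25, adjusted p = 0.0173), with overlapping groups. With the clock score as a covariate the 27-month value was 0.86 and not called (adjusted p = 0.0769). The gastrocnemius value of 0.57 (SE 0.23, adjusted p = 0.0245) was just under 1.5-fold, with 11 of 11 old libraries above the young median, and it was called with total-count scaling, sample quality weights or either covariate (0.65 to 0.89). In the diaphragm the 24-month levels were 208, 419 and 602 CPM against 439, 632 and 1162 CPM at 6 months, a fall of 0.89 (SE 0.24, adjusted p = 0.00719), and at 27 months the value was -0.29, not called.

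Genes of the circadian clock differed between the ages beside these results. Of 10 clock genes 5 were called higher and 3 lower at 27 months in the diaphragm and in the soleus, 4 higher and 3 lower in the gastrocnemius, and 5 higher and 4 lower in the tibialis anterior. Collection ran from the morning to the early afternoon, and the hour of a library is not given. Because clock genes differed with age, the clock covariate cannot tell clock state and age apart. The part of clock state in the calls of Ucp3 and Pdk4 was not tested.

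The shape over the 7 ages was described for the called genes by comparing a flat, a straight and a logistic curve (Bayesian information criterion). Cd36, Lpl, Fabp3 and Cpt2 in the soleus took the logistic form, with fitted inflections at 27, 25.5, 24.25 and 26 months in that order. The search ended at 27 months, so that the value of Cd36 is its edge. No library lies between 24 and 27 months, so the data cannot place an inflection within that span. The straight line was the class chosen for Angptl4 in the 3 limb muscles, Ucp3 in the soleus and Pdk4 in the tibialis anterior. It was kept unless the logistic curve was better by a gap of 2. The group means did not rise at every step. In the soleus those of Ucp3 were 4.08, 2.91 and 5.66 log2 CPM at 6, 12 and 27 months, and those of Angptl4 were 1.25, 0.46 and 3.03. Pdk4 in the tibialis anterior had 9.43 at 18 months and 8.93 at 24 months. For the diaphragm calls of Pdk4 and Ucp3 no trend was chosen.

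Whether the change from 6 to 27 months differed between muscles was tested as an interaction for each of 6 muscle pairs. Between the soleus and the diaphragm 7 of the 10 genes differed, against 11.9% of all genes tested. The difference in change, soleus minus diaphragm, was -1.44 for Fabp3 (adjusted p = 2.14e-13), -1.21 for Lpl (adjusted p = 1.17e-13), -0.97 for Cpt2 (adjusted p = 8.29e-12) and -0.70 for Cpt1b (adjusted p = 2.25e-14). It was positive for Ucp3, at 2.75 (95% interval 1.84 to 3.66, adjusted p = 1.85e-07), and for Angptl4, at 1.59 (adjusted p = 0.0218). Cd36 had -0.60 (adjusted p = 0.00879), a call that ended with edgeR, with other scalings of the counts and with sample quality weights. The Cpt1b call ended with total-count scaling.

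The soleus differed from the gastrocnemius in 5 genes (all genes 14.5%). The difference in change, soleus minus gastrocnemius, was -1.58 for Lpl (adjusted p = 8.56e-22), -0.83 for Fabp3, -0.77 for Cd36, -0.62 for Acadl and 1.62 for Ucp3. From the tibialis anterior it differed in 4 (15.8%), Lpl, Fabp3, Acadl and Ucp3, in the same directions. Changes of the gastrocnemius and the diaphragm differed in 5 genes (21.6%), of which Cpt2 (-0.74, adjusted p = 1.16e-07) had the smallest p, and those of the tibialis anterior and the diaphragm in 3 (20.3%), Angptl4, Pdk4 and Ucp3. With edgeR the gastrocnemius and diaphragm differed in 2 genes, without Angptl4, Pdk4 and Ucp3, and the tibialis anterior and diaphragm no longer differed in Pdk4 (adjusted p = 0.0619). With total-count scaling the calls of Cpt2 (-0.45) and Fabp3 (-0.31) between gastrocnemius and diaphragm ended. Between the gastrocnemius and the tibialis anterior limma-voom and edgeR each called 0 genes (7.32% of all genes by limma-voom), and 4 of 10 had an unadjusted p under 0.05. There the difference in the change of Angptl4 had a 95% interval of -0.83 to 1.34 and that of Ucp3 one of -0.78 to 0.98, too wide to show that they change alike. The libraries of the gastrocnemius stand in a running-number series of their own in the labels, so that series and muscle cannot be told apart for its pairs. All pairs that share a muscle share its libraries.

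Other transcripts were called in the soleus beside the 4 falls and the rise of Ucp3. All 6 fast fibre genes were called higher at 27 months, with a median change of 3.15 and a summed level of 30.9 to 636 CPM at 6 months and 127 to 3715 CPM at 27 months. The 6 slow fibre genes had a median of -0.34, with 0 called by limma-voom and summed levels of 48785 to 61322 CPM, then 21323 to 62642 CPM. Of 18 mitochondrial genes outside fatty acid oxidation 7 were called lower and 0 higher (median -0.57), with summed levels of 10404 to 11698 CPM and 5386 to 10601 CPM. Such mitochondrial genes were also called lower in the gastrocnemius (8 of 18) and the tibialis anterior (6 of 18), where none of the 10 genes was called lower, and in the diaphragm 0 of 18 were called. Among 7 endothelial markers 1 was called lower in the soleus (368 to 448 CPM summed, then 265 to 386 CPM). Liver transcripts, which a piece of soleus should lack, summed to 6.56 to 1479 CPM at 6 months and 0.901 to 1999 CPM at 27 months, with 2 of 5 called lower. Macrophage markers were called higher in 6 of 7 cases in the gastrocnemius and in the tibialis anterior and in 0 of 7 in the soleus and diaphragm by limma-voom. The part of fibre type and of other cells in the results of the 10 genes was not tested.

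Soleus libraries with less Lpl had less of the slow fibre genes, mainly at 24 and 27 months. After removal of the age means, over 84 soleus libraries, Pearson's r between Lpl and the slow fibre score (the mean log2 CPM of its genes) was 0.66 and Spearman's rho 0.44 (permutation p within ages 1e-05 and 0.00011, adjusted over 16 relations 1.33e-05 and 0.000147). Without the 2 libraries farthest from the median of Lpl r was 0.56. Within single ages (n = 12) r was 0.85 at 24 months and 0.79 at 27 months, but 0.036 to 0.34 from 6 to 21 months, where Lpl varied little (SD 0.072 to 0.17 log2 CPM, against 0.45 and 0.46). With the score of mitochondrial genes outside fatty acid oxidation r was 0.81 and rho 0.61 (permutation p 1e-05 for both, 0.72 without 2 libraries), and with the fast fibre score r was -0.48 and rho -0.39 (permutation p 1e-05 and 0.00035, -0.40 without 2 libraries). At 24 and 27 months these were 0.93 and 0.82 for the mitochondrial score and -0.89 and -0.88 for the fast fibre score, and from 6 to 21 months 0.19 to 0.59 and -0.38 to -0.014. Ucp3 had a weaker relation with the fast fibre score (r 0.24, rho 0.24, permutation p 0.0265 and 0.0311, r 0.17 without 2 libraries), which within ages ran from -0.16 to 0.76. The points share a library and its scaling, and the smallest p that these permutations can give is 1e-05.

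A wider list of the pathway, with 70 of 71 genes tested in each muscle and the 10 genes among them, gave 6 genes called higher and 19 lower in the soleus at 27 months. Over all genes tested 9.21% were higher and 5.78% lower. At a 2-fold threshold 3 of the list were higher and 2 lower in the soleus, so that the excess of falls did not hold there. Its median change was -0.31, beside 0.019 over all genes tested. The gastrocnemius had 9 higher and 10 lower (median -0.11), the tibialis anterior 9 and 9 (-0.036) and the diaphragm 3 and 2 (0.067). Of all genes 22.8%, 27.6% and 7.52% were called in these muscles, and the shares of the list, 27.1%, 25.7% and 7.14%, lay near them. By role, mitochondrial beta-oxidation had 7 of 19 genes called lower and 0 higher in the soleus (all genes 5.78% lower), 1 higher in each of the gastrocnemius and tibialis anterior, and 0 called in the diaphragm by limma-voom. The soleus genes among them were Acadm, Acads and Acad9, of the acyl-CoA dehydrogenase family, Hadhb, Hadh and Echs1 of the later steps, and Etfa, which passes electrons on to the respiratory chain. Their falls ran from 0.66 (Acads) to 0.92 (Acad9). They are named after their values were seen, and whether the list differs between muscles was not tested.

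**Figure D4:**
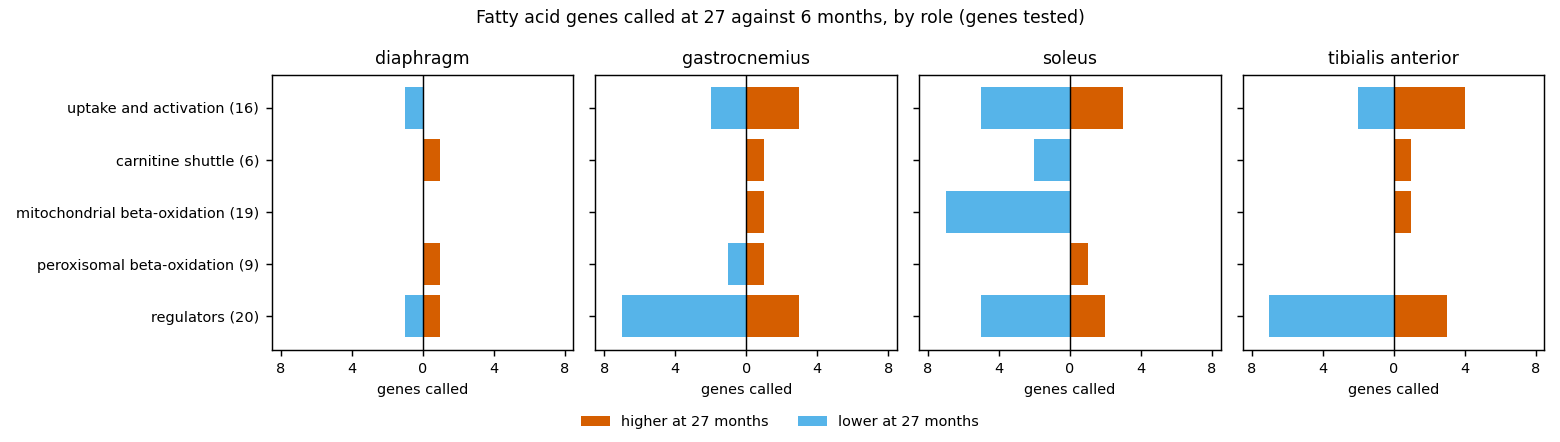
Number of genes called higher (right of 0) and lower (left of 0) at 27 against 6 months in each muscle, for 5 role lists with the number of genes tested in brackets. Mitochondrial beta-oxidation has 7 genes to the left in the soleus and none to the left in the other muscles.

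Some genes of the list were called in 1 direction in several muscles, other than the 10. They are named because of these calls. Genes called in this way were not counted over all genes tested, so whether the list holds more of them is not known. Acsl3 and Acsl4, which activate fatty acids by joining them to coenzyme A, rose in the 3 limb muscles, by 0.80 to 1.45 and by 1.27 to 1.82. Cpt1a, the form of Cpt1 best known from liver, rose in the diaphragm (0.64), gastrocnemius (1.09) and tibialis anterior (1.39). Ucp2, another mitochondrial carrier, rose in all 4 muscles by 0.84 to 1.34, and Vldlr, a receptor that takes up triglyceride-rich lipoproteins, fell in all 4 (-0.62 to -1.11). Pdk2, another pyruvate dehydrogenase kinase, fell in the 3 limb muscles (-0.75 to -1.15). So did Lpin1 (-0.78 to -1.87), a phosphatidate phosphatase that also acts with PPAR coactivators, the nuclear receptor Rxrg (-0.96 to -1.40) and Esrra (-0.64 to -0.82), a nuclear receptor that drives oxidative genes. Lpin1 was the largest fall of the list in the gastrocnemius and tibialis anterior, and Acsl4 the largest rise in the gastrocnemius.

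Pdk4 and Ucp3 varied together from library to library. After removal of the age means Pearson's r between them was 0.75 over 83 diaphragm, 0.72 over 73 gastrocnemius, 0.76 over 84 soleus and 0.81 over 85 tibialis anterior libraries. Spearman's rho was 0.67, 0.69, 0.75 and 0.77, with a permutation p within ages of 1e-05 each, the smallest possible (adjusted over 16 relations 1.33e-05 for r and 1.60e-05 for rho). Leaving out the 2 libraries farthest in Pdk4 gave r from 0.68 to 0.77. Within single ages (n = 9 to 13) r was positive at each of the 7 ages in every muscle, from 0.26 to 0.87 in the diaphragm, 0.0035 to 0.97 in the gastrocnemius, 0.36 to 0.94 in the soleus and 0.053 to 0.98 in the tibialis anterior. Angptl4 followed both, with r from 0.43 to 0.71 against Pdk4 and from 0.44 to 0.70 against Ucp3, and rho from 0.43 to 0.64 and from 0.43 to 0.71. The largest permutation p among these 8 was 0.0004, or 0.000427 adjusted, and without 2 libraries r stayed between 0.39 and 0.74. Within single ages the r of Angptl4 with Pdk4 was positive throughout, and that with Ucp3 was negative at 1 of 7 ages in the diaphragm and at 1 of 7 in the gastrocnemius. The libraries of a group share the collection day, and those of 1 rat may appear in several muscles. As above, the 16 relations are a part of the correlations computed, and their p is not adjusted over the rest.

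**Figure D5:**
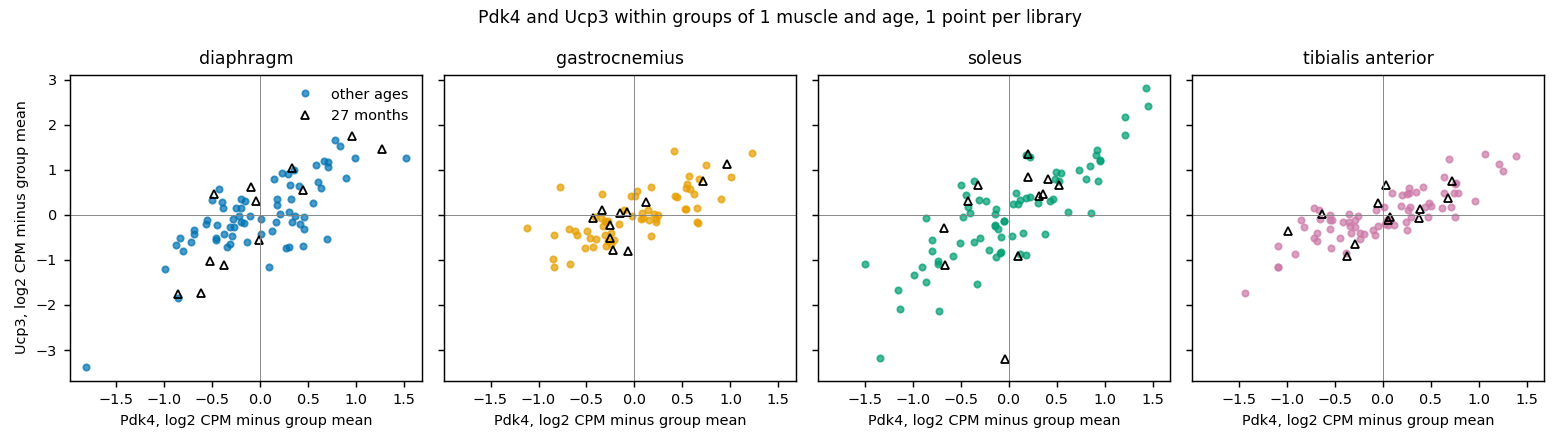
Level of Ucp3 against that of Pdk4 in every library, each as log2 CPM minus the mean of its group of 1 muscle and age, with 27 months as open triangles. Points rise from lower left to upper right in each of the 4 muscles.

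Because these genes varied together, the promoters of Pdk4 and Ucp3 are shown, as RefSeq gives them for the build GRCr8, which is later than the build of the count files. Each window holds 250 bases before the gene's start and 50 after it, 5′ to 3′ on the gene's strand. Capitals mark the letters AGGTCA, a single copy of the site from which the elements of many nuclear receptors are built.
Pdk4, chr4:34568280-34568579, minus strand: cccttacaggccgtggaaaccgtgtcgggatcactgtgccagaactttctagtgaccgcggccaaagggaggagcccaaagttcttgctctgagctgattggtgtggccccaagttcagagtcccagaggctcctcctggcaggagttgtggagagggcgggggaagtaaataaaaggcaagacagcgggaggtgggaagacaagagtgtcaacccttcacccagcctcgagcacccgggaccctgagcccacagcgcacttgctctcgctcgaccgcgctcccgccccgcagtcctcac
Ucp3, chr1:164227660-164227959, plus strand: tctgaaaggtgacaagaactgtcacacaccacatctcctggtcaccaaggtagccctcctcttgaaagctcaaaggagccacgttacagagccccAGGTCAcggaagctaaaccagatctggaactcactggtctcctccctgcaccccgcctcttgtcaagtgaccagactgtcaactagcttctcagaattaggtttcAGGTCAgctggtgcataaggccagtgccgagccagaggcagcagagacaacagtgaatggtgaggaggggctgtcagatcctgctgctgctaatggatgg

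Promoters were at hand for 7 of the 10 genes (Cd36, Angptl4, Fabp3, Cpt2, Hadha, Pdk4 and Ucp3). They were searched on both strands for the element of PPAR and RXR, 2 copies of AGGNCA in 1 direction with 1 free base between them, and for that of Esrra, TNAAGGTCA, and neither was found in the 7 windows. Of all 33469 promoters of this length 0.415% hold the first and 1.2% the second. The single site AGGTCA, which is contained in the second and was searched for after the others had given no match, stands in 16.2% of all promoters. Among the 7 windows it stands in that of Ucp3, at positions -155 and -50 from the start. A match in letters is a description of the sequence and not a sign of binding. At shares of 0.415% and 1.2%, finding neither element in 7 windows says little, and no bases outside the windows were searched.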

How the data were processed

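RNA of rat muscle samples was sequenced by the authors with a strand-specific kit after removal of ribosomal RNA. They mapped the reads with ArrayStudio to a rat genome with an in-house gene model, and deposited raw counts per gene for each library (17870 lines). Lines that share a symbol were summed here. The 10 genes and all lists were chosen with earlier results of these data known.

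Groups were taken from the sample titles. Within each muscle, genes with low counts were removed with filterByExpr (minimum count 10, minimum total 15), which left 11754 to 12175 genes, and each age was tested against 6 months with limma-voom (limma 3.58.1, edgeR 4.0.16, R 4.3.3) after TMM scaling. The threshold was a Benjamini-Hochberg adjusted p under 0.05 together with a change over 1.5-fold. Differences between muscles came from 1 fit over the 28 groups (12784 genes). CPM were given a prior count of 0.5 for the log2 scale. Trend classes asked for a gap of 6 in the Bayesian information criterion, and of 2 for a logistic over a straight line. Alternatives were other scalings, no filter, edgeR, DESeq2 1.42.0, Bonferroni adjustment, a 2-fold threshold, sample weights, marker scores as covariates, a replicate block and left-out libraries. The alternative without the libraries that stand apart (over 5 median absolute deviations) was chosen after seeing the data. Named were the 10 genes, list genes called in 1 direction in 3 or more muscles, the list gene with the largest rise and fall in each muscle, and the 3 genes most like each of the 10. On simulated data for the soleus at 27 against 6 months 96% of 2-fold changes were called, with 3 of 11870 unchanged genes. Only genes with ample counts were changed there, each gene had the same spread at every age, and there was no effect of collection day. In the data the spread could differ with age, as for Lpl in the soleus (SD 0.082, then 0.46). These rates thus hold for the simulated setting only. Each library of a muscle is from its own animal by the study's supplement. The labels do not say which libraries of different muscles share an animal, and comparisons between muscles took them as independent. Within a group of 1 muscle and age no 2 libraries held the same counts.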

Additional observations from a re-analysis of the deposited data

Results flagged for a closer look

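The change from 6 to 27 months differed between muscles by limma-voom, as a test of the interaction, in 24 of 60 combinations of gene and muscle pair. Lpl and Fabp3 differed between the soleus and each other muscle. For Lpl the difference was -1.21 (soleus minus diaphragm), -1.58 (soleus minus gastrocnemius) and 1.61 (tibialis anterior minus soleus). For Fabp3 these values were -1.44, -0.83 and 1.33, and gastrocnemius minus diaphragm was -0.60, a call that ended with total-count scaling (-0.31) and with sample quality weights (-0.53). Cd36 differed by -0.60 (soleus minus diaphragm) and -0.77 (soleus minus gastrocnemius).

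In the oxidation genes, Acadl differed by -0.62 (soleus minus gastrocnemius) and 0.72 (tibialis anterior minus soleus), although it was called at 27 months in no muscle by limma-voom. Cpt2 differed by -0.74 (gastrocnemius minus diaphragm) and -0.97 (soleus minus diaphragm), and Cpt1b by -0.70 (soleus minus diaphragm).

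By limma-voom every limb muscle differed from the diaphragm in Angptl4 and Ucp3, although with edgeR the gastrocnemius did not (adjusted p = 0.061 and 0.0811). For Angptl4 the difference from the diaphragm was 1.46 (gastrocnemius), 1.59 (soleus) and 1.72 (tibialis anterior). For Ucp3 it was 1.13, 2.75 and 1.23, and Ucp3 also differed by 1.62 (soleus minus gastrocnemius) and -1.52 (tibialis anterior minus soleus). Pdk4 differed from the diaphragm by 0.82 in the gastrocnemius and 0.88 in the tibialis anterior, both without a call in edgeR. The clock covariate, under which the diaphragm fall of Ucp3 did not hold, was not run for these differences. They share libraries wherever they share a muscle, and no cause was tested.

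A single library stood apart in its group for 1 gene. In the gastrocnemius at 24 months the highest library had 8.92 log2 CPM of Cpt1b and the next 8.69. Groups of 4 to 10 libraries could be looked at in this way, which gave 30 sets of gene and group, and chance alone gives about 1 such library in 20 sets.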

How the results depend on the processing

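Of 1450 single values under an alternative, 1351 kept their direction and their side of the threshold, 42 lost a call, 23 gained one and 34 changed sign. Among called values 503 of 546 kept both. The soleus values of Lpl and Fabp3 and the tibialis anterior value of Angptl4 at 27 months kept their calls under every alternative. Total-count scaling moved the median over all genes at 27 months from 0.00 to 0.04 (diaphragm), from 0.04 to 0.32 (gastrocnemius), from 0.02 to 0.16 (soleus) and from 0.02 to 0.34 (tibialis anterior). The share of calls that were higher went from 43.4% to 51.0%, from 66.0% to 90.0%, from 61.4% to 77.7% and from 62.4% to 89.1% in that order. With the clock score as a covariate it was 65.6% in the diaphragm.

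The number of the 10 genes called at 27 months moved under these alternatives. The diaphragm count of 1 became 0 with Bonferroni adjustment and 0 with the clock covariate. The gastrocnemius count of 1 became 0 with Bonferroni adjustment and 2 with total-count scaling, sample quality weights, the adipocyte covariate and the clock covariate, each time with Pdk4 added. In the soleus Bonferroni adjustment ended the calls of Angptl4 and Ucp3, and a 2-fold threshold those of Cd36 and Cpt2. Total-count scaling ended that of Cpt2 and the adipocyte covariate that of Angptl4, while the clock covariate added Acadl. The tibialis anterior count of 2 became 1 with Bonferroni adjustment, a 2-fold threshold or the clock covariate. For the wider list a 2-fold threshold gave 1, 8, 5 (3 higher, 2 lower) and 11 in that order, in place of 5, 19, 25 and 18, and the clock covariate gave 3 in the diaphragm. Of differences in change, Bonferroni adjustment left 1 for gastrocnemius and diaphragm (edgeR 2, in place of 5), 0 for tibialis anterior and diaphragm (in place of 3) and 3 for soleus and gastrocnemius (in place of 5). Total-count scaling gave 8 for tibialis anterior and soleus (in place of 4). At 6 months gastrocnemius and diaphragm differed in 3 genes with Bonferroni adjustment and in 8 with total-count scaling, in place of 5.

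Of the values that changed sign, Ucp3 in the diaphragm at 27 months, 0.35 with the clock covariate, was the only called one. With total-count scaling the changes at 27 months were 0.023 (Acadl, diaphragm), 0.18 (Cd36), 0.14 (Cpt1b), 0.17 (Hadha) and 0.26 (Ucp3) in the gastrocnemius, and 0.11 (Cpt2, tibialis anterior). Differences in change with that scaling were 0.0098 (Hadha, gastrocnemius minus diaphragm), 0.23 (Cd36), 0.22 (Fabp3), 0.20 (Cpt1b) and 0.29 (Hadha) for tibialis anterior minus diaphragm, and -0.019 (Angptl4, soleus minus gastrocnemius). Differences at 6 months with it were -0.41 (Angptl4) and -0.36 (Hadha) for gastrocnemius minus diaphragm, -0.021 (Cd36) and -0.010 (Fabp3) for soleus minus diaphragm, and -0.33 (Hadha, tibialis anterior minus soleus). Acadl in the diaphragm had 0.0011 with DESeq2, and Pdk4 in the diaphragm 0.032 with the clock covariate. Ucp3 in the gastrocnemius had 0.034 with edgeR, 0.026 with DESeq2, 0.12 with quality weights, 0.025 with the adipocyte covariate and 0.59 with the clock covariate. Quality weights also gave 0.038 (Cd36, tibialis anterior minus diaphragm) and -0.0019 (Ucp3, tibialis anterior minus gastrocnemius), edgeR gave -0.24 (Angptl4, tibialis anterior minus soleus), and relative log expression scaling gave -0.0026 (Cd36 at 6 months, soleus minus diaphragm). The cause was not tested.

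With the replicate number as a block the counts of the 10 genes called at 27 months were 1, 1, 6 and 2 in that order, as without it, and the wider list had 5, 18, 24 and 17. In the fit over all groups the block was age and number together. There the block ended the difference in change of Fabp3 between gastrocnemius and diaphragm (-0.57) and gave one of Pdk4 between soleus and diaphragm (0.65). Sign changes under the block were -0.056 (Pdk4) and -0.024 (Ucp3) for tibialis anterior minus gastrocnemius, -0.15 (Angptl4, tibialis anterior minus soleus), and at 6 months -0.13 (Angptl4, gastrocnemius minus diaphragm) and 0.083 (Angptl4, tibialis anterior minus gastrocnemius). The numbers were not taken as pairs, since not every pair of libraries correlated. Deviations of libraries with the same number had a median r of 0.0063 to 0.028 across ages and of 0.034 to 0.20 across muscles. Across muscles the median r of other numbers at the same age was -0.027 to -0.012. Among diaphragm, soleus and tibialis anterior 36 of 83, 42 of 83 and 43 of 84 libraries correlated best with their own number, a hint of shared animals from the data, not from the design, and the comparisons of muscles took libraries as independent.

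The alternative without the third running-number series could not be applied to the gastrocnemius, nor the one without libraries that stand apart to the gastrocnemius and soleus.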

Other observations

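The genes whose age pattern was most like that of each of the 10 are given as a description, by Pearson's r over the 28 group means of log2 CPM after subtraction of the mean of each muscle, among 8688 genes. The points share libraries and scaling, so no p is given. For Cpt2 they were Hadh (0.96), Ogdh (0.96) and Idh2 (0.96), the first of them a beta-oxidation enzyme and the other two enzymes of the citric acid cycle. For Hadha they were Acadvl (0.93), Osbp2 (0.88) and Acad10 (0.87), and for Acadl Gbe1 (0.95), Bzw2 (0.88) and Ppp1r12b (0.88). Cpt1b had Eci1 (0.94), Coro7 (0.93) and Fabp3 (0.92), where Eci1 is an enzyme of beta-oxidation. Fabp3 had Nr0b2 (0.92), Cpt1b (0.92) and Cox8b (0.90), where Cox8b is a subunit of cytochrome c oxidase.

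Among the uptake genes, Cd36 had Ctnnal1 (0.93), Clpx (0.93) and Oxct1 (0.93), of which Oxct1 and, for Lpl, Bdh1 are enzymes of ketone body use. For Lpl they were Bdh1 (0.90), Tcta (0.89) and Tasp1 (0.86). Angptl4 had Cd81 (0.90), Clec2g (0.90) and Gpr108 (0.90). The values were lower for Ucp3, with Popdc2 (0.81), Mylpf (0.78) and Gstm4 (0.76), of which Mylpf is a light chain of fast myosin, and for Pdk4, with Ptms (0.74), Wbp1 (0.73) and Fasn (0.73).

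A list of genes that PPAR receptors are known to induce, which holds 9 of the 10, had 5 of 15 tested genes called higher and 0 lower at 27 months in the tibialis anterior, 4 higher and 0 lower in the gastrocnemius, 2 higher and 5 lower in the soleus, and 2 higher and 1 lower in the diaphragm. Over all genes 17.2% were higher and 10.4% lower in the tibialis anterior, and 15.1% and 7.76% in the gastrocnemius. For the soleus these shares were 9.21% and 5.78%, and for the diaphragm 3.27% and 4.25%. The SD of log2 CPM over libraries was larger at 27 months for 10 of 10 genes in the diaphragm, 9 in the soleus, 8 in the tibialis anterior and 6 in the gastrocnemius, and for Lpl in the soleus it was 0.082 and then 0.46. It was smaller at 27 months in the other 7 of 40 cases, such as Angptl4 in the gastrocnemius (1.43, then 0.93). The spread was not tested, nor compared with that of all genes.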
